A study of Mus musculus with 12 samples.

Results

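The regions described here were called open in Ly6C-high blood monocytes and in no other myeloid population sorted for the study. Open chromatin was mapped in C57BL/6J mice by ATAC-seq, which uses a transposase to cut and tag accessible DNA. Peaks of all 6 deposited lists were merged where they overlapped by 1 bp or more, and a merged region was kept where it held a peak of the blood list and of none of the other 5 lists. The rule kept 9705 of 100354 merged regions (9.67%), which is 13.9% of the 69616 blood peaks and 35.0% of the 27745 regions held by 1 list only. They are called blood-only regions below, and each held 1 blood peak. The members were chosen by the peak calls themselves, so the absence of a region from the other lists is the rule and not a result. With 1 list per group there is no replicate check, and no difference between lists was tested.

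The 12 libraries made 6 groups of 2, with 1 deposited peak list for each group. Blood-Ly6CHi-NASH is Ly6C-high monocytes of peripheral blood from mice on the NASH diet, a diet that models nonalcoholic steatohepatitis. The other groups came from liver: Ly6CHi-RM and Ly6CLo-RM are CD11b-high recruited macrophages with high or low Ly6C, KN-RM is F4/80-high Tim4-negative Kupffer cells, and KC-N is F4/80-high Tim4-positive Kupffer cells, all on the NASH diet. KC-H is F4/80-high Tim4-positive Kupffer cells on the control diet. Every group is the same strain, no transgene is named in the labels, and the labels do not give the number, age or sex of the mice or whether the libraries of a group came from separate animals. No blood list on the control diet was used here, so diet and tissue cannot be told apart in the set against KC-H. Livers were perfused and digested with flavopiridol present, and the labels describe no such step for blood, so tissue of origin and isolation cannot be told apart.

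Ly6C-high monocytes, also called classical monocytes, are made in the bone marrow, circulate for a short time and enter inflamed tissue, where they can become macrophages. Open chromatin away from gene starts often marks enhancers, which differ more between cell types than promoters do. ETS factors such as PU.1, C/EBP factors and KLF factors are known to act in myeloid cells. At the defining genes the blood list held 166 peaks at the 25 classical monocyte genes listed for this work, with at least 1 at each. Ly6c2, the gene of a Ly6C antigen, had 4 blood peaks, and Ccr2, the receptor that brings monocytes out of the marrow, had 6. Neither sets blood apart by its number of peaks: Ly6CHi-RM had 5 and 6, and KC-H 3 and 3. Of the 19 listed Kupffer cell genes, 17 had a blood peak. Timd4, the gene of the sorting marker Tim4, had 0 blood peaks against 17 in KC-H, and Clec4f had 1 against 18 in KC-H, but Cd163 had 8 against 7 and Vsig4 6 against 5.

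The clearest sequences to show are the promoters where a blood-only region stood alone, with no peak centre of any other list within 5 kb. They are the peak-covered parts of RefSeq promoter windows (GRCm38.p6, 250 bases before to 50 after a start), read 5′ to 3′ on the gene's strand. Capitals mark a match to C/EBP (TTGCNNAA), KLF (GGGTGTGG), RUNX (TGTGGTT) or the GC box (GGGCGGG), each on either strand. Gm52482 lies at chr4:140787524-140787724 (plus strand), Nlrp12 at chr7:3249708-3249908 (minus strand), Angptl8 at chr9:21835338-21835538 (plus strand), Tfr2 at chr5:137569691-137569889 (plus strand), Stfa3 at chr16:36455515-36455642 (minus strand) and Gm31493 at chr1:160025714-160025860 (minus strand). The first is shown because its signal, 82.5, is the highest of these promoters, the second because no other list has a peak at the gene, and the others because they carry the KLF letters. All 6 were picked after their values were seen.
Gm52482: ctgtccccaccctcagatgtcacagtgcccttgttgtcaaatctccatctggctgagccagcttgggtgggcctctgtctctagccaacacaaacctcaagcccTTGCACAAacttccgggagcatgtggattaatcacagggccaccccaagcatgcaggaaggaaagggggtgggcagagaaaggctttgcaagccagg
Nlrp12: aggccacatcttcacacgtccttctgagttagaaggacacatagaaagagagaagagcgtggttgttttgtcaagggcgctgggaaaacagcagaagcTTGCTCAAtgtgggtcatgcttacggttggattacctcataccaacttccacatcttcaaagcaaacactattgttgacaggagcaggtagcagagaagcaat
Angptl8: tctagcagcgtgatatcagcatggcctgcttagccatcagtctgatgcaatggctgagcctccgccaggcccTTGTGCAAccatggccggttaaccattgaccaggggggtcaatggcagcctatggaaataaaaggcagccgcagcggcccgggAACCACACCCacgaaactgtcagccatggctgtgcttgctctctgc
Tfr2: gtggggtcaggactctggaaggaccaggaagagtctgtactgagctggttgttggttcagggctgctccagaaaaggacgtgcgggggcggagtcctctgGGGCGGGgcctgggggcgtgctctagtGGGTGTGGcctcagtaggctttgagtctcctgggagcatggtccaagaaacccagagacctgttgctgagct
Stfa3: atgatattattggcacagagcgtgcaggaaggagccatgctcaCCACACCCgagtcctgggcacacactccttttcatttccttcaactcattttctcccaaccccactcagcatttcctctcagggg
Gm31493: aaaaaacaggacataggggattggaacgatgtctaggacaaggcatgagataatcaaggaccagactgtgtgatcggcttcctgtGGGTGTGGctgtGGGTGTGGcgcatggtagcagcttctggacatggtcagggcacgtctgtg
In Angptl8 the RUNX and KLF matches overlap and form 1 run of capitals. Gm52482 and Gm31493 are predicted genes. Nlrp12 encodes an NLR protein that restrains inflammatory signalling in myeloid cells, Angptl8 a secreted regulator of lipoprotein lipase, Tfr2 the transferrin receptor 2 and Stfa3 a stefin, an inhibitor of cysteine proteases.

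The blood-only regions were mostly weak peaks. Their median signal, the authors' normalized value for a peak, was 23.8 (quartiles 20.4 and 29.6, highest 843), against 34.9 in regions of the blood and Ly6CHi-RM lists only, 45.1 in regions of the blood and both CD11b-high lists only, and 124 for the blood peak of regions in all 6 lists. The list as a whole had a median of 50.0 and a minimum of 17.9. When the blood list was cut into 10 bins of near-equal size by signal, 47.9% of the lowest bin was blood-only (95% Wilson interval 46.7 to 49.0), 37.4% of the second, 25.6% of the third and 15.7% of the fourth. The share was 7.73% in the fifth bin, 2.83% in the sixth and from 0.750% down to 0.101% in the 4 highest. Thus 8888 regions (91.6%) lay in the 4 lowest bins and 95 in the 4 highest. Absence from a list does not show closed chromatin, since a weak site can miss a call; how much of the set this accounts for was not tested. Cut to an equal length of 34293 peaks by score, the lists gave 3162 regions, and without the condition on Ly6CHi-RM the set held 15894. All intervals given here cover counting error only.

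**Figure D1:**
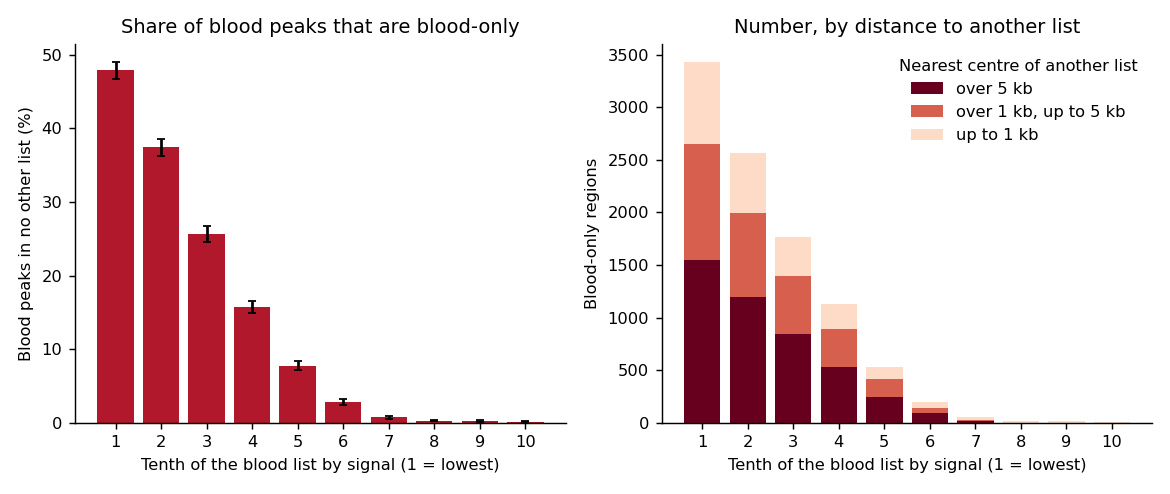
Left, percent of blood peaks that are blood-only in each of 10 bins of the blood list by signal, with 95% Wilson intervals; right, number of blood-only regions in each bin, coloured by the distance to the nearest peak centre of any other list. The share is 47.9% in the lowest bin and 0.101% in the highest.

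Many blood-only regions stood far from any peak of the liver lists, farther at the median than the regions that any other list held alone. The median distance to the nearest centre of another list was 4198 bp (quartiles 1176 and 12414). It was 1797 bp for regions only in Ly6CHi-RM, 2310 bp for Ly6CLo-RM, 342 bp for KN-RM, 1762 bp for KC-N and 1511 bp for KC-H. Such a centre lay within 1 kb of 22.5% of blood-only regions, against 37.1% for Ly6CHi-RM, 31.8% for Ly6CLo-RM, 77.9% for KN-RM, 39.6% for KC-N and 42.3% for KC-H. A centre was more than 5 kb away for 4481 regions (46.2%), and more than 50 kb away for 490 (5.05%). Each of these distances depends on the lengths of the lists, which ran from 34293 peaks in KN-RM to 69616 in blood. The nearest centre belonged to Ly6CHi-RM for 33.4% of the blood-only regions, to Ly6CLo-RM for 22.3%, to KC-H for 21.1%, to KC-N for 15.2% and to KN-RM for 8.04%.

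**Figure D2:**
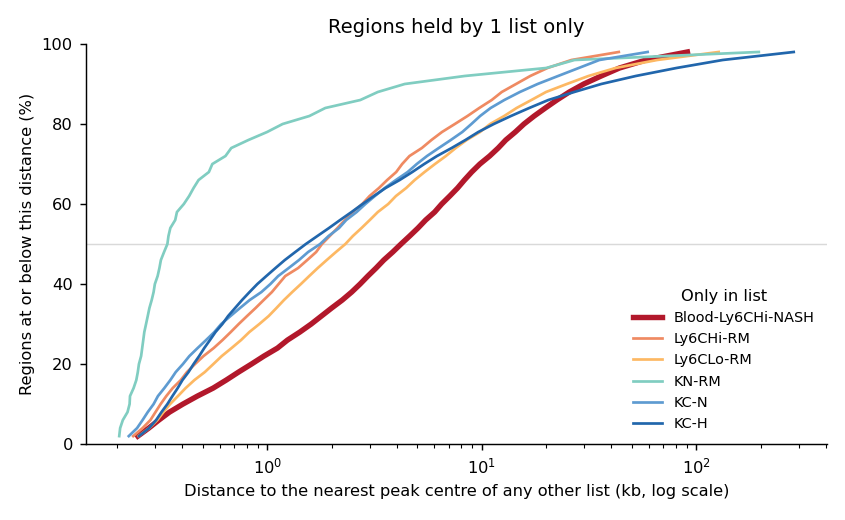
Cumulative percent of regions held by 1 list only (y axis) against the distance to the nearest peak centre of any other list (x axis, kb, log scale), 1 line per list. The blood line lies right of the others from the 6% to the 86% level, with a median of 4198 bp against 342 to 2310 bp in the other lists.

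At the high end, signal and distance were linked. Of the 95 regions in the 4 highest bins, 64.2% had a centre of another list within 1 kb, against 22.0% in the 4 lowest. All 10 regions of highest score, an integer deposited with every peak, lay 208 to 379 bp from another list's centre, and 9 of these were within 1 kb of the end of a protein-coding gene. They included the region at Ripk2, a kinase of NOD receptor signalling, with a signal of 843 and the KN-RM centre 226 bp away. Klf10, a TGF-beta-induced KLF factor, had one of 436 with the Ly6CHi-RM centre 238 bp away. At the edge of the rule, 37 blood-only regions lay 0 to 10 bp from a peak of another list (median signal 24.3) and 25 blood peaks left out overlapped one by 1 to 10 bp (median 22.8).

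Among the regions with no centre of another list within 5 kb, the 10 of highest score had signals of 62.6 to 130 and lay 7595 to 61719 bp from other lists' centres. None (0) was within 1 kb of the end of a protein-coding gene, although 3 lay 2255 to 3213 bp from one and the region in Padi3 is the Gm52482 promoter printed above. The region of highest score was 3213 bp outside Slc52a3, a riboflavin transporter, with a signal of 129. Next came one in Cmip with 130, one in Fhit, a large gene at a known fragile site, with 87.3, and one in Padi3 with 82.5. Regions in Stxbp6, Shisa9, Ralgps1, Cacfd1 and Babam2 and one beside Clec2d, which encodes a ligand of an NK cell receptor, made up the rest.

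Blood-only regions lay mostly away from gene ends, as did other regions found in few lists. Within 1 kb of either end of a protein-coding gene lay 10.4% of them (9.76 to 11.0), against 8.49% of regions of blood and Ly6CHi-RM only, 8.83% of regions of blood and both CD11b-high lists only, and 40.4% of regions in all 6 lists. Among regions held by 1 list, the share was 10.2% for Ly6CHi-RM, 10.9% for Ly6CLo-RM, 29.3% for KN-RM, 13.5% for KC-N and 20.1% for KC-H (19.3 to 20.9). In the lowest bin by signal, 9.91% of blood-only and 17.3% of shared blood peaks were near a gene end. Shared blood peaks include those in any other list, so this gap cannot be set against the one to regions in all 6 lists. In the 4 highest bins, which hold 95 of the regions, the blood-only share was the higher one. It was 30.8%, 55.0%, 50.0% and 100%, against 21.3%, 26.6%, 36.6% and 65.5% of shared blood peaks. Only in the eighth bin, with 20 regions, did its interval (34.2 to 74.2) leave out the shared value. Inside genes lay 55.9% of blood-only regions and 53.9% of regions in all 6 lists.

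The X chromosome carried more of these regions than its share of peaks. Of 1532 blood peaks on X, 300 were blood-only (19.6%, 17.7 to 21.6), against 13.8% of 68014 autosomal ones, and each autosome lay between 11.7% and 16.4%. X held 3.09% of blood-only regions, 2.42% of those only in Ly6CHi-RM, 1.34% of those only in Ly6CLo-RM and 1.69% of those only in KC-H. Over whole lists X held 2.20% of peaks in blood, 1.99% in Ly6CHi-RM, 1.92% in Ly6CLo-RM, 1.37% in KN-RM, 1.60% for KC-N and 1.76% for KC-H.

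Blood-only regions were spread thinly over many genes. Of 14822 protein-coding genes with a blood peak, 5480 (37.0%) held at least 1, by assignment to the gene containing the centre or else the nearest within 100 kb, and 3507 of these held exactly 1. At least 3 were found at 850 genes and at least 5 at 198. Xylt1, which starts glycosaminoglycan chains on proteoglycans, and Ssbp2, a partner of LIM-domain transcription complexes, had 12 each, of 34 and 31 blood peaks. Gas7, Prkag2, a subunit of the energy sensor AMPK, Tbl1xr1, a corepressor subunit, Nav2 and Alb had 11 each. Their blood peaks numbered 30, 33, 29, 35 and 11, in that order. Flt1, a receptor for VEGF, Dgkh and Stxbp6 had 10, of 21, 17 and 28 blood peaks. Foxp1, a forkhead factor that acts in monocyte differentiation, had 9 of 59 (15.3%), near the 13.7% of assigned blood peaks over all genes. The 20 genes with the most had a median length of 191 kb, against 23.4 kb for all genes with a blood peak.

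At some genes most of the blood peaks were blood-only, which does not say that other lists had few peaks there. Of 4698 genes with at least 5 blood peaks, 74 had over 50% of them blood-only, a list drawn after the values were seen. Among them Xcl1, the chemokine that draws XCR1-positive dendritic cells, had 5 of 5, Adgrl4, an adhesion receptor of endothelium, 5 of 6, Aplnr, the apelin receptor, 4 of 7, Cxcl12, the ligand of CXCR4, 4 of 6 beside 4 peaks of KC-H, and Dpp4, a chemokine-cleaving peptidase, 5 of 9. The genes with a blood peak and no peak of any other list numbered 349, and 6 of these had at least 3 blood-only regions. They were Padi3 with 5, Boc, a coreceptor of hedgehog signalling, and Olfr640, an olfactory receptor, with 4 each, and Nlrp12, Fam209 and Gm32742 with 3 each; these too were picked after their values were seen. At Boc, regions of 52.9, 42.2 and 24.7 lay within 1 kb of a gene end, and the nearest centre of another list was 73878 bp away or more.

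The run with the most regions lay across Alb, which encodes albumin, the main secreted protein of hepatocytes. All 11 blood peaks assigned to it were blood-only, at chromosome 5 from 90462654 to 90476600, a span of 13.9 kb that held 0 peaks of every other list. Their signals ran from 23.8 to 53.8 with a median of 30.6, and the nearest centre of another list was 24419 bp away. They filled the gene body from 1884 bp inside its start to 102 bp inside its far end, and none lay in its RefSeq promoter window. No other gene of the 12 listed hepatocyte genes had a blood-only region: 6 had a blood peak, Alb included, and the 12 peaks outside Alb were all shared.

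At Padi3, which encodes a peptidylarginine deiminase, 5 blood-only regions lay within 6.58 kb with signals of 82.5, 22.3, 25.2, 17.9 and 25.2 in order of position. The first is the Gm52482 promoter printed above, 13358 bp from the nearest centre of another list, which was of Ly6CHi-RM. Padi4, the neighbour in the same family that citrullinates histones in neutrophils, had 1 of 5 blood peaks blood-only. Zbtb16 encodes PLZF, a BTB zinc finger factor of innate-like lymphocytes and progenitors, and 5 of its 14 blood peaks were blood-only. Those of 58.7 and 66.9 flanked the upper-coordinate end of the gene, 14338 and 14784 bp from the nearest centre of another list. At Vcan, the proteoglycan versican of inflammatory monocytes, all 4 blood-only regions of 24.7, 22.3, 35.9 and 28.6 lay 23138 to 42583 bp outside the gene, while its other 5 blood peaks were shared.

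**Figure D3:**
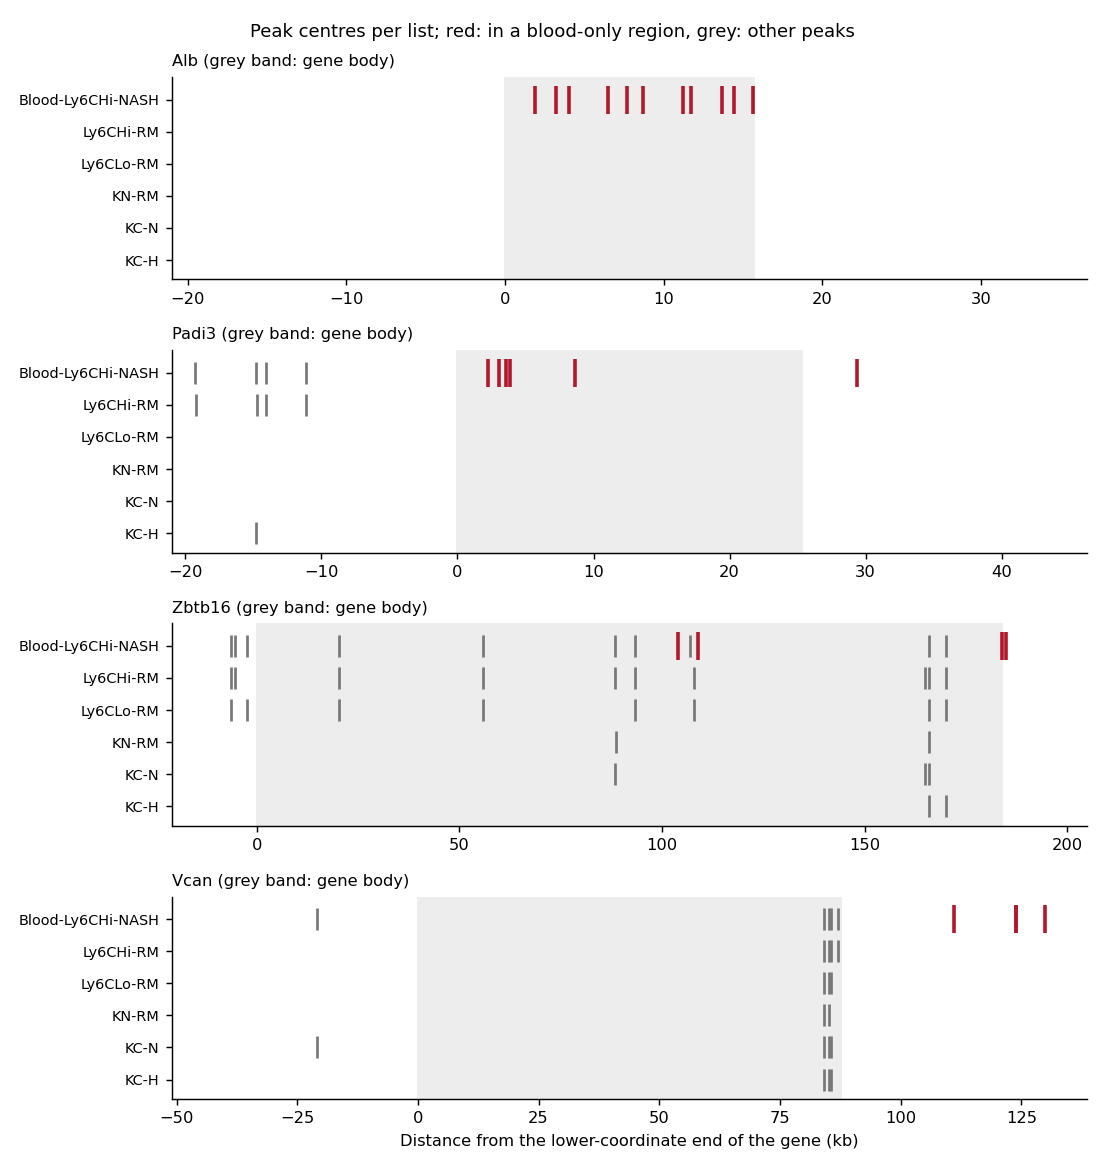
Peak centres of each list (rows, blood on top) at 4 genes, as distance in kb from the gene's lower-coordinate end, with 20 kb on each side (50 kb for Vcan); red marks blood-only regions and grey all other peaks. At Alb the 11 blood peaks have no counterpart in any other list, and at Vcan the 4 blood-only regions lie outside the gene.

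Most blood-only regions had no other blood-only region within 10 kb. Chained by the gap between their edges, 7237 runs held 1 region, 886 held 2, 167 held 3, 33 held 4, 8 held 5, 2 held 6 and 1 held 11. Rspo1, a secreted agonist of WNT signalling, and Lrrk2, a kinase expressed in monocytes, had runs of 6. Measured between centres, another blood-only region lay within 10 kb of 25.2% of them, and a shared blood peak within 10 kb of 64.9%. Of shared blood peaks, 80.4% had another shared one that near. There were 9705 blood-only regions and 59911 shared blood peaks, so these shares do not compare how closely the 2 kinds cluster.

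Set against gene lists under the 1 bp rule, the share at classical monocyte genes was close to the background and that at early response genes was below it. Over all genes, 13.7% of assigned blood peaks were blood-only. At the classical monocyte genes it was 27 of 166 (16.3%, 11.4 to 22.6), at 15 of the 25 genes, with a median signal of all their blood peaks of 55.5 against 50.5 over all genes. Klf13 had 6 of 34, Vcan 4 of 9, F13a1, coagulation factor XIII A, 2 of 11 and Lyz2, lysozyme, 2 of 3. Ly6c2 and Ccr2 had 1 each, and Chil3 and Plac8, also of this list, had 0, of 2 and 12 blood peaks. Outside this list, S100a8, a calcium-binding alarmin of the neutrophil list, had 1. Of the nonclassical list, Cx3cr1 and Nr4a1, a factor needed for nonclassical monocytes, had 0, of 9 and 13. With no other centre within 1 kb, the classical monocyte genes had 26 of 166 (15.7%, 10.9 to 22.0), an interval above the 10.6% over all genes. With lists of equal length they had 8 of 91 (8.79%) against 8.98%, and with a gene window of 20 kb 16 of 127 (12.6%) against 13.2%.

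The AP-1, EGR and early response genes, which switch on within minutes of stimulation, had 7 of 223 (3.14%, 1.53 to 6.34). Fos had 2 of 31, and Jun and Junb 1 each of 13 and 10; Atf3 had 0 of 15. The NF-kB and inflammatory genes had 7 of 149 (4.70%), the housekeeping genes 4 of 82 (4.88%) and the nonclassical monocyte genes 7 of 110 (6.36%), and these were the 4 of 27 lists whose intervals lay below 13.7%. The median signals of their blood peaks were 52.9, 59.2, 69.3 and 52.6. With a gene window of 20 kb the interval of the nonclassical list, 3.06 to 13.6, held the 13.2% over all genes. The nonclassical interval also held the share over all genes with no other centre within 1 kb (2.52 to 11.4, against 10.6%) and with lists of equal length (0.875 to 10.9, against 8.98%). Assigned to the nearest gene end it stayed below (3.12 to 12.6, against 13.7%). The intervals of lists of the macrophage kind reached 13.7%: Kupffer cell genes with 6 of 70 (8.57%), Fc receptor and phagocytosis genes with 6 of 85 (7.06%) and Trem2-type lipid-associated macrophage genes with 8 of 99 (8.08%).

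The highest shares were at lists of other cell types, but not all such lists were high. Platelet (8.70%), mast cell (9.09%) and neutrophil genes (10.4%) lay below 13.7%, and dendritic cell genes were at 14.7%. The intervals lay above 13.7% for hepatocyte genes, with 11 of 23 (47.8%, 29.2 to 67.0), all at Alb, for B cell genes, with 6 of 19 (31.6%, 15.4 to 54.0), and for erythroid genes, with 8 of 30 (26.7%, 14.2 to 44.4). These intervals count neighbouring regions of 1 gene as separate draws, so that of the hepatocyte genes describes Alb and not the list. By gene, 1 of 6 hepatocyte genes with a blood peak held a blood-only region (16.7%), against 37.0% of all genes with a blood peak. Bank1, a B cell adaptor, had 3 of 9, and Sptb, the erythrocyte beta-spectrin, 3 of 10. Pax5, the factor that fixes B cell identity, had 0 of 1. Endothelial and stellate cell genes had 9 of 37 (24.3%), with Col1a1 3 of 3, and T and NK cell genes 7 of 34 (20.6%), with Tbx21, the lineage factor T-bet, 3 of 3. The median signal of the blood peaks was 34.9 at B cell, 29.6 at erythroid and 30.3 at T and NK cell genes, below the 50.5 over all genes. With lists of that equal length, the share over all genes was 8.98%, hepatocyte genes had 5 of 11, B cell genes 1 of 7, and erythroid and T and NK cell genes 0 of 9 and 0 of 5; the endothelial and stellate cell genes had 0 of 16. Assigned to the nearest gene end, erythroid genes had 5 of 21 (23.8%, 10.6 to 45.1), an interval that held the 13.7% over all genes. With a gene window of 20 kb, that of the B cell genes, 4 of 16 (10.2 to 49.5), held 13.2%. How far other cells in the sort entered these values was not tested.

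**Figure D4:**
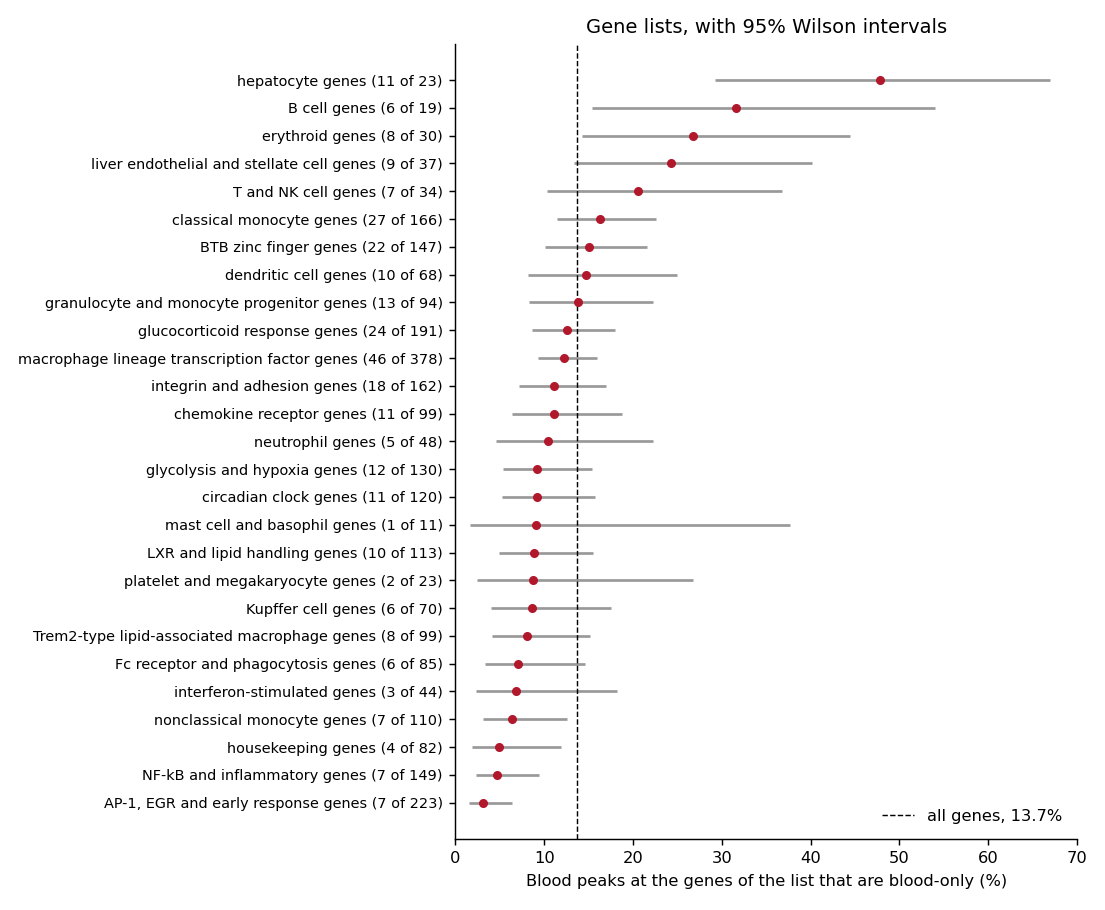
Percent of the blood peaks at the genes of each list that are blood-only (points), with 95% Wilson intervals (bars) and counts beside the names; the dashed line is the 13.7% over all genes. The intervals of hepatocyte (all regions at Alb), B cell and erythroid genes lie right of the line, and those of 4 lists, down to 3.14% at early response genes, lie left of it.

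The macrophage lineage transcription factor genes had 46 of 378 (12.2%), near the 13.7% over all genes. At least 1 lay at 17 of 20 genes, against 37.0% of all genes with a blood peak. These shares of genes are not alike in peak number: 378 blood peaks lay at the 20 genes, against 66591 at 14822 genes. Mef2c, Mitf and Runx2 had 5 each, and Irf8, a factor that sets monocyte and dendritic cell fate, 4 of 23. Tcf4, of the dendritic cell list, also had 5. Spi1, which encodes PU.1, had 1 of 10. BTB zinc finger genes had 22 of 147 (15.0%), at 8 of 18 genes, led by Zbtb16, with Zbtb18 and Zbtb20 at 4 each. The glucocorticoid response genes had 24 of 191 (12.6%); Tsc22d3, the steroid-induced leucine zipper GILZ, had 5 of 20, while Fkbp5 and Per1 had 0 of 8 and 0 of 7. Chemokine receptor genes had 11 of 99 (11.1%), integrin and adhesion genes 18 of 162 (11.1%), LXR and lipid handling genes 10 of 113 (8.85%), interferon-stimulated genes 3 of 44 (6.82%) and neutrophil genes 5 of 48 (10.4%). Circadian clock genes had 11 of 120 (9.17%), glycolysis and hypoxia genes 12 of 130 (9.23%), dendritic cell genes 10 of 68 (14.7%), platelet genes 2 of 23 (8.70%) and mast cell genes 1 of 11 (9.09%). Granulocyte and monocyte progenitor genes had 13 of 94 (13.8%). This became 10 of 41 (24.4%, against 8.98% over all genes) with lists of equal length, and 7 of 94 (7.45%, against 10.6%) with no other centre within 1 kb. The intervals of these lists all held 13.7%.

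At promoters, blood-only regions were rare. Of 11610 RefSeq promoter windows with a blood peak, 342 (2.95%) held a blood-only region, 311 regions at 322 genes, and 113 of the regions had no centre of another list within 5 kb. Besides those printed above, such lone promoter regions, picked after their values were seen, were found at Pik3cd, the leukocyte phosphoinositide 3-kinase delta, with a signal of 51.9, Adgrl4 with 51.9, Hrh2, the histamine H2 receptor, with 33.0, Cd300c, a myeloid receptor, with 29.6, Ms4a4c, a gene of a membrane-protein family active in monocytes, with 28.1, and Ace with 26.2. The 124 windows with a lone region had a median GC content of 55.7% and 9 CG pairs, against 62.3% and 23 in 9065 windows with a region in all 6 lists and 52.7% and 7 in all 32851 windows.

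Of 26 motifs searched on both strands, the KLF letters were more frequent in lone windows than in the others. They were in 15 of the 124 windows, or 13 of 115 genes (12.1% of windows, 7.47 to 19.0), against 3.71% of windows with a region in all 6 lists and 3.56% of all promoters. The matches lay mostly off the middle: in the central 100 bases the shares were 1.61%, 1.31% and 1.41%. C/EBP letters were in 12.9% (8.10 to 19.9), 7.79% and 10.8% of the same 3 kinds of window, and in 7.26%, 2.71% and 3.94% of their central 100 bases. RUNX letters were in 7.26%, 3.30% and 5.27%. Some letters typical of promoters open in most cells were less frequent than in the windows of regions in all 6 lists: the GC box was in 32.3% against 52.6%, the E-box CACGTG in 3.23% against 11.7%, and the CRE (TGACGTCA) and NRF1 (TGCGCATGC) letters in 0 of 124 (up to 3.00%) against 4.19% and 3.77%. Of all promoters, 25.6%, 7.15%, 1.79% and 1.52% held these letters, so the GC box was no rarer in the lone windows than in promoters at large, and the intervals for the others held those shares. A match describes the letters in a window and not a bound site.

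**Figure D5:**
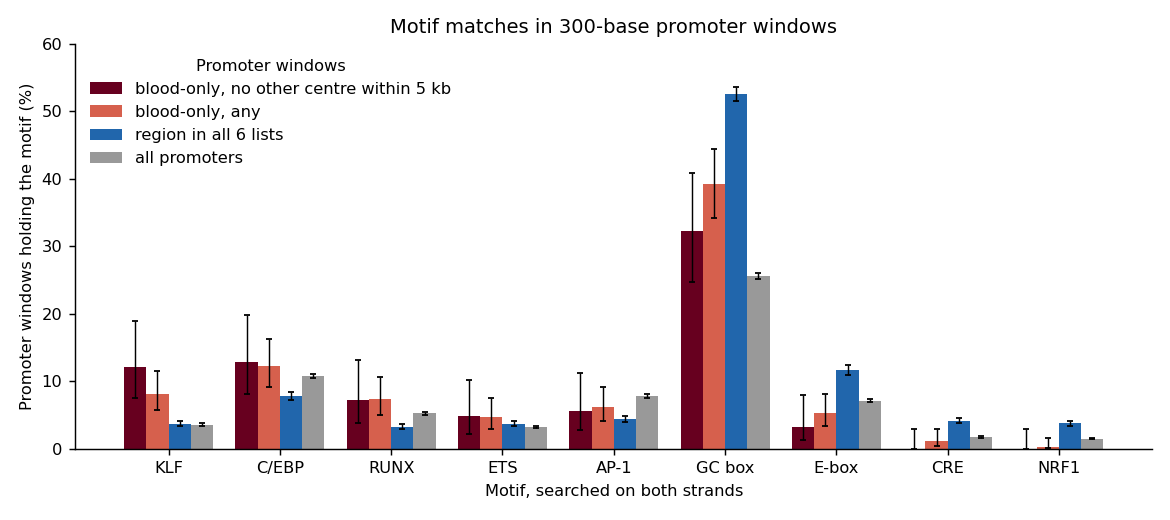
Percent of 300-base promoter windows that hold a motif on either strand, for windows with a lone blood-only region, any blood-only region, a region in all 6 lists, and all promoters, with 95% Wilson intervals. KLF is at 12.1% in the first kind against 3.56% of all promoters, and the GC box at 32.3% against 52.6% in windows with a region in all 6 lists.

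Blood-only regions overlapped the hairpins of 5 miRNA genes, which are Mir223, Mir202, Mir7686, Mir293 and Mir6939. How many hairpins any blood peak overlapped was not counted. The 5 thus cannot be set against the 13.9% of all blood peaks that are blood-only. Mir223 gives miR-223, an abundant miRNA of myeloid cells, and its mature 3p strand is shown with the seed (bases 2 to 8) in capitals.
mmu-miR-223-3p: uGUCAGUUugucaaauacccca
The region at Mir223 had a signal of 20.9 and lay 1953 bp from a KC-H centre. It covered the first bases of the hairpin and did not reach the printed 3p strand. The strongest of these regions, with 68.4, covered the hairpin of Mir7686 and part of that of Mir202, and lay 6388 bp from the nearest centre of another list.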

How the data were processed

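The series has 12 ATAC-seq libraries, 2 in each group. Bowtie2, HOMER and DESeq2 and the builds mm10 and GRCm38 are named, per the submitters' processing notes, with no role for any. The library depth, the filters on reads and any correction for the transposase's offset were not found in the labels, and could shift peak edges and decide weak calls. For each group the authors deposited 1 list of peaks, named for the irreproducible discovery rate and not split by library, so no value per library and no test between groups was possible. Each row has a position, a signal (the authors' deposited normalized value of the peak) and a score (a whole number, also the authors' deposited value). Both were used within 1 list only, and the lists' medians are not on 1 scale. Of all peaks, 10 were not 200 bp wide.

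Peaks were merged with an overlap of 1 bp or more. Genes are the 21896 protein-coding genes of a RefSeq table (GRCm38.p6), without strand or exons, so exon, intron and untranslated positions are not given. Promoter windows are RefSeq's 32851; 17491 of the protein-coding genes have one. The members, the 27 gene lists and the motifs were chosen with earlier results of these data known, and 2 listed symbols, Mx1 and Mx2, are pseudogenes in that table and were not counted. Named genes are the 20 with the most blood-only regions, up to 4 per list and a fixed set of markers; regions are the 10 of highest score, of highest signal, and of highest score over 5 kb from other lists; runs are those with the most regions. Not all of these are printed, and any gene named outside this rule is marked as picked after its values were seen. The values of 1 gene of the fixed set are not reported here. Alternatives varied the overlap, list length, lists compared, gene window and distances. Merging and assignment were tested on simulated lists. Scripts ran in Python 3.11.15 with pandas 2.3.3, numpy 2.4.6 and scipy 1.17.1, and plots in matplotlib 3.10.9.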

Additional observations from a re-analysis of the deposited data

How the results depend on the processing

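The number of blood-only regions, 9705, stayed within 1.5 times (7520 to 11408) under overlap by 50%, centres within 200 bp, no other centre within 1000 bp, autosomes and X only, no signal over 10 times the list median, and omission of Ly6CLo-RM, KN-RM, KC-N or KC-H from the lists that must lack a peak. It was 4481 with no other centre within 5000 bp, 3162 and 3201 with lists of equal length by score and by signal, 286 with the blood list reduced to its best-scored 50%, 32454 with the other lists so reduced, and 15894 without Ly6CHi-RM. Under overlap by 50%, no centre within 1000 bp and then these 6 settings in order, the share near a gene end (10.4%) was 11.0%, 5.77%, 5.38%, 12.8%, 13.2%, 25.5%, 13.6% and 9.66%, and the share of genes (37.0%) was 37.8%, 30.9%, 20.4%, 18.9%, 19.2%, 2.06%, 74.4% and 49.0%. Without KC-H these were 12.8% and 42.0%; the share of genes was 39.0% without Ly6CLo-RM, 37.9% without KC-N and 34.2% with a gene window of 20 kb. Gene end distances of 500 and 2500 bp gave 6.12% and 18.7%. The median signal over that of the list (0.476) moved past the quartiles only with the other lists reduced, to 0.602. Another blood-only region lay within 5 kb of 15.5% and within 25 kb of 44.1%. With lists of equal length, 24 of 27 gene list counts moved by over 1.5 times; fewer peaks enter by construction. Motifs could be searched in promoter windows only. No paired analysis was possible because each list was made from both libraries of its group. Depth per library is unknown, and weak peaks, the bulk of the set, depend most on it.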
